A study of Mus musculus with 15 samples.

Results

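The baseline transcriptome of cortical microglia from non-transgenic wild type mice was measured in 6 of the 15 libraries of the series, and is described as levels across genes. They are the samples titled non-Tg, with the numbers 2, 5, 9, 11, 12 and 13; the other 9 carry the PS2APP transgenes and were not compared. Samples 5 and 13 came from mice of 14 months (n = 2) and samples 2, 9, 11 and 12 from mice of 15 months (n = 4). The cells were sorted from the cortex for green fluorescence under the label Cx3cr1::GFP+, so every library carries that reporter. The labels give neither sex nor the number of mice behind a library, and they do not say whether the reporter replaces a copy of Cx3cr1. How much of the spread between libraries is technical therefore cannot be told. Xist and Y-linked genes split the libraries, as given below.

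Microglia are the resident macrophages of the brain. They arise from yolk sac progenitors, keep themselves by slow division, and depend on the receptor for colony stimulating factor 1 for survival and on transforming growth factor beta for their tissue identity. They survey the tissue with their processes, sense nucleotides released by other cells through purinergic receptors, listen to neurons through the fractalkine receptor Cx3cr1, and clear debris and synapses with the help of complement and lysosomal proteases.

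Levels are given as nRPKM, the deposited reads per length of gene model and per depth of library, adjusted by a size factor. This scale allows comparison between genes. A pair of numbers in parentheses after a median gives the lowest and the highest of the 6 libraries. Library depth ran from 3664742 reads in sample 5 to 8455237 in sample 13, with a median of 5884921. A gene near 1 nRPKM (0.9 to 1.1) rested on a median of 65.5 reads per library. The nRPKM values of a library summed to between 78573 and 101877, so 1 nRPKM corresponds to 9.82 to 12.7 TPM (transcripts scaled to a fixed total per library).

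The sort was first checked against its defining markers. Cx3cr1, the fractalkine receptor and the gate gene (NCBI Gene 13051, chr9:120048683-120068296 on GRCm38), stood at 200.1, 185, 177, 186, 160.2 and 190.0 nRPKM in samples 2, 5, 9, 11, 12 and 13, a mean of 183 ± 13.5 (SD, n = 6). P2ry12, the ADP receptor that directs process movement (Gene 70839, chr3:59216271-59262985), stood at 529.9, 702, 579, 658, 539 and 948 nRPKM in the same order. Tmem119, a membrane protein used to tell microglia from other macrophages (Gene 231633, chr5:113793729-113800396), stood at 339, 269.9, 283, 276, 237 and 150.3 nRPKM. All 4 defining markers were high in every library, with Csf1r, the receptor for colony stimulating factor 1, at 359.9 (256 to 430.5) nRPKM. Sample 13 held the highest P2ry12 and the lowest Tmem119 and Csf1r of the 6, so the markers did not move together. P2ry12 exceeded Cx3cr1 in 6 of 6 libraries, by a mean of 1.82 ± 0.30 on the log2 scale of the nRPKM ratio (SD, n = 6). Tmem119 exceeded Cx3cr1 in 5 of 6.

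The expressed set was broad and its top narrow. The median level passed 1 nRPKM for 9354 of 36528 genes in the table, 10 nRPKM for 1287, 100 nRPKM for 65 and 1000 nRPKM for 4. Each library alone held between 9178 and 9675 genes over 1 nRPKM, 6816 genes passed in all 6, and 5746 passed in some libraries but not in all. Genes that RefSeq names as protein coding made up 8011 of the 9354, lncRNAs 469 and miRNA genes 152. Of all 21271 genes named as protein coding, 37.7% passed 1 nRPKM. That share is the background for the counts of listed genes below. No read fell on 13221 genes. The 10 genes with the most reads in each library took 8.49% ± 0.77 of its reads (SD, n = 6). The first 10 by median nRPKM, a partly different set, took 14.2% of the summed nRPKM, and the first 1000 took 58.3%.

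Cst3, which encodes the secreted cysteine protease inhibitor cystatin C (Gene 13010, chr2:148871722-148875512), was first with 4070.0, 2758, 4712, 4723, 3608 and 2727 nRPKM in samples 2, 5, 9, 11, 12 and 13. The 14 month libraries, 5 and 13, were the lowest for Cst3, and their values did not overlap those of the other libraries. With so few libraries many genes can split this way by chance, and their share was not counted. The age test below, which has little power, called 0 of 14918 genes. B2m, the light chain of MHC class I, stood at 1107 (918 to 1420.0) nRPKM. Ctss, the lysosomal protease cathepsin S, came next with 1019 (612 to 1683). Ctss was the last of the 4 genes whose median passed 1000 nRPKM.

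The next places held genes of the cytoskeleton, complement, the lysosome and the mitochondrial genome. Tmsb4x, which binds actin monomers, stood at 868 (569 to 1179) nRPKM and Actb, cytoplasmic beta actin, at 560.1 (332 to 834). The complement genes C1qb and C1qc stood at 851 and 773 nRPKM and cathepsin D, Ctsd, at 830.3 (542 to 1146). The mitochondrial transcripts COX1, CYTB, ND1 and ND5, which encode respiratory chain subunits, had medians of 875, 538, 497 and 328 nRPKM. Their spread was wide: COX1 ran from 261 in sample 12 to 1403 in sample 11. Serinc3, a membrane protein gene, stood at 457 (375 to 553) nRPKM, Itm2b, an integral membrane protein gene, at 325 (252 to 403), the tetraspanin gene Cd81 at 360.3 (274 to 488) and Selenop, a secreted selenium carrier, at 332 (244 to 370.4).

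**Figure D1:**
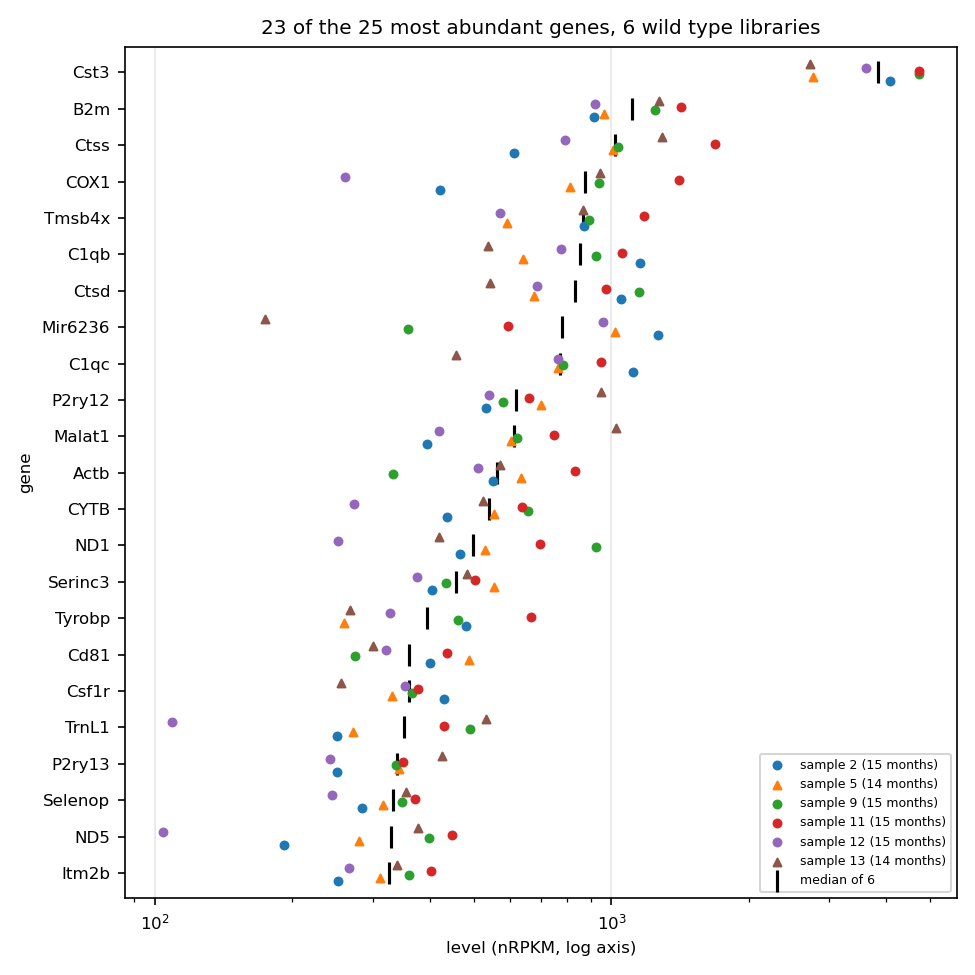
Level of 23 of the 25 most abundant genes (y axis) in nRPKM on a log axis, 1 point for each of the 6 wild type libraries; triangles are 14 months, circles 15 months, and bars the median of 6. Cst3 is at the top with 2727 to 4723 nRPKM, and Mir6236 has the widest range, 174 to 1267.

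The test could hardly resolve the order of neighbours among the leading genes. Its smallest p is too large for 24 pairs unless most of them reach it. Over the 24 pairs of neighbours among the 25 most abundant genes, an exact two-sided sign-flip permutation test over the 6 libraries called none at an adjusted p under 0.05. The smallest p that 6 libraries allow is 0.03125, which 3 pairs reached, Ctss over COX1 among them, with a Benjamini-Hochberg adjusted p of 0.25. The pairs were formed by the same levels that are tested. Some of the 25 have limits in how reads were assigned. Whether the counts used strand is not given in the sources used here, so reads of overlapping genes cannot be told apart. Mir6236, TrnL1 and other short RNA genes gain a high nRPKM from few bases. Ordered by reads instead, Malat1, a nuclear lncRNA with 612 (394 to 1025) nRPKM, came first, and 17 of the 25 genes were the same.

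Promoter sequence is shown for the gene of highest level (Cst3), for the leading receptor (P2ry12), for the gate gene (Cx3cr1) and for the C1q pair whose levels did not separate (C1qb and C1qc). Each line is the stretch of 250 bases directly before the gene start in the RefSeq promoter table (GRCm38.p6), read 5′ to 3′ on the gene's strand. All 5 genes lie on the minus strand, at chr2:148875513-148875762, chr3:59262986-59263235, chr9:120068297-120068546, chr4:136886201-136886450 and chr4:136892915-136893164 in the order of the lines. The C1qc start in that table lies 22 bases inside the outer end of the gene's RefSeq span, and the other 4 starts are at the end of the span. Capitals mark a match on either strand to GAGGAAGT, a strong site of the myeloid ETS factor PU.1 (the product of Spi1), or to TATAAA.
Cst3: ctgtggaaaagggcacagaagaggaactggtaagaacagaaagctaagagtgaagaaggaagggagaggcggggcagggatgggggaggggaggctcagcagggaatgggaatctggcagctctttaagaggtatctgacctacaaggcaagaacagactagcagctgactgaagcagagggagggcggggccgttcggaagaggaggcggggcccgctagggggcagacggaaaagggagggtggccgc
P2ry12: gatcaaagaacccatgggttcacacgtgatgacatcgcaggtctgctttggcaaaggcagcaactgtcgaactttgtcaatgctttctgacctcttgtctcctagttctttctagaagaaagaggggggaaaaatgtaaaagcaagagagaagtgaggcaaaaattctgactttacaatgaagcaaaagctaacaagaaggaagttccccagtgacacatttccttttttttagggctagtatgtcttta
Cx3cr1: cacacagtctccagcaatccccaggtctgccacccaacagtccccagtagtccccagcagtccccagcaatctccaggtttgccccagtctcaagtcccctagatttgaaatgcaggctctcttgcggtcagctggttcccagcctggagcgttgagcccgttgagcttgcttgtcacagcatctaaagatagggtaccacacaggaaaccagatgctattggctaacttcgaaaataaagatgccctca
C1qb: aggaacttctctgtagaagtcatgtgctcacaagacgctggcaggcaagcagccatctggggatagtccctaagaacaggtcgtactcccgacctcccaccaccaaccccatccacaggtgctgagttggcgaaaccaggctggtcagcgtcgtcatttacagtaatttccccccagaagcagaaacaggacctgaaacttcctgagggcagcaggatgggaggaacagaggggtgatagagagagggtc
C1qc: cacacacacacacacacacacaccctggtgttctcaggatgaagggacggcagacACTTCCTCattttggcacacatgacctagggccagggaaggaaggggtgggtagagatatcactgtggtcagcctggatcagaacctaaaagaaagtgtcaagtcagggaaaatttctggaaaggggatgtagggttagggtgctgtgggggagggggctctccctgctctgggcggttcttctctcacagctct
Of these 5 only the C1qc stretch held the PU.1 letters, as their reverse complement beginning 195 bases before that table's start, and none held TATAAA. GAGGAAGT was in 2.44% of 27025 stretches of this length before a gene, in 4 of those of the 100 protein-coding genes with the highest level, and in 0 of 26 of the homeostatic marker genes that had a stretch. TATAAA was in 12.97% of all stretches, in 6.30% of 6902 before genes over 1 nRPKM, in 10 of the 100 and in 26.4% of 4139 before protein-coding genes with no read. A match is a run of letters and not a measured site.

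The homeostatic list, genes used to define resting microglia, was detected whole. All 35 listed genes passed 1 nRPKM, 33 passed 10 and 17 passed 100, against 25.6% of all genes in the table over 1 nRPKM. The median member stood at 80.8 nRPKM, and the median of all genes over 1 nRPKM was 3.25. Sparc, a secreted matrix protein gene, stood at 305 (271 to 385) nRPKM. Gpr34, a lysophospholipid receptor gene, had 213 (132 to 235) and Olfml3, a secreted glycoprotein gene, 191 (132 to 229). The lowest member by median was Jun, a subunit of AP-1, at 5.42 nRPKM, which is described with the immediate early genes below. Gas6, a ligand of the TAM receptors, was next lowest at 8.02 (6.98 to 10.8).

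Of 334 listed receptor, adaptor and channel genes, 142 passed 1 nRPKM, 71 passed 10, 16 passed 100 and 16 had no read. The share over 1 nRPKM of all protein-coding genes was 37.7%. Purinergic receptors led: P2ry12 was followed by its chromosome 3 neighbour P2ry13, another ADP receptor, at 251, 342, 337, 350.1, 242 and 425 nRPKM in samples 2, 5, 9, 11, 12 and 13. P2ry12 was above P2ry13 in each library by 1.02 ± 0.15 on the log2 scale (SD, n = 6). The UDP receptor gene P2ry6 stood at 32.5 (22.9 to 48.8) nRPKM, the ATP-gated channel P2rx7 at 15.1 (11.8 to 20.5), and the adenosine receptor Adora3 at 11.99 (8.16 to 13.9). P2rx2 and P2ry4 had no read. Of 20 listed purinergic receptors 7 passed 1 nRPKM, a share near that of all protein-coding genes.

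Chemokine receptor transcript was concentrated in Cx3cr1, which held 66.4% of the list's summed level. Cmklr1, the chemerin receptor gene, stood at 19.2 (12.01 to 25.4) nRPKM. Ccr2, the receptor that marks inflammatory monocytes, stood at 1.37 (0.725 to 1.60) nRPKM, and Ccr7, Ccr8 and Cxcr1 had no read. Itgam, the alpha subunit of complement receptor 3, stood at 140.2 (113 to 198) nRPKM and its partner Itgb2 at 37.6 (31.7 to 42.7). The anaphylatoxin receptor genes C3ar1 and C5ar1 stood at 49.2 (33.6 to 77.8) and 21.1 (13.1 to 35.4) nRPKM. Itgb5, which pairs with the alpha V integrin, stood at 60.4 (36.3 to 85.3).

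The list of Toll-like receptors and their partners was led by Ly86 and Cd180. Ly86 and Cd180 encode a complex that modulates Toll-like receptor 4 signalling, and they stood at 287 (223 to 365) and 167 (123 to 279) nRPKM. Tlr7, a sensor of single-stranded RNA, stood at 57.6 (39.1 to 91.4) nRPKM, Tlr13, a sensor of bacterial ribosomal RNA, at 34.7 (25.5 to 42.6), and Tlr3, a sensor of double-stranded RNA, at 22.8 (15.1 to 24.1). Cd14, which hands lipopolysaccharide to Toll-like receptor 4, stood at 39.1 (25.1 to 62.8). Of 16 genes in the list 14 passed 1 nRPKM.

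Receptors that signal through an ITAM adaptor were present together with high levels of the adaptors. Tyrobp, the adaptor DAP12, stood at 479.6, 259.7, 461, 665, 328 and 268 nRPKM in samples 2, 5, 9, 11, 12 and 13 and held 63.98% of its list's summed level. Its lipid-sensing partner Trem2 stood at 200.3, 113, 183, 245, 155 and 82.1 nRPKM in the same order. Both genes were lowest in the 14 month libraries and highest in sample 11. Neither was called by the age test, which has little power. How many of all genes show such an order was not counted. Tyrobp exceeded Trem2 in all 6 by 1.34 ± 0.22 on the log2 scale (SD, n = 6). Fcer1g, the common gamma chain of activating Fc receptors, stood at 275 (212 to 331) nRPKM, and Fcgr3, the low-affinity receptor it serves, at 79.4 (66.6 to 119.8). The inhibitory receptor Fcgr2b stood at 38.6 (34.2 to 67.97). Fcrls, an Fc receptor-like gene used as a microglial marker, stood at 208 (155 to 312). Trem1 and Fcer1a had no read.

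Inhibitory and clearance receptors were also well expressed. Siglech, a sialic acid lectin that pairs with DAP12, stood at 151 (122 to 185) nRPKM, Sirpa, the receptor for the Cd47 signal, at 100.3 (91.6 to 133), Lair1, a collagen receptor, at 90.4 (77.6 to 105), and Cd33 at 70.3 (54.3 to 94.04). Cd68, a lysosomal glycoprotein of macrophages, stood at 138 (132 to 162) nRPKM. Mertk, which binds apoptotic cells through Gas6 and protein S, stood at 64.02 (60.3 to 75.1) nRPKM. Its bridging ligand Pros1 was at 30.5 (25.7 to 42.8), above Gas6. Lrp1, a large endocytic receptor, stood at 20.4 (15.8 to 28.3), and Marco had no read.

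Cytokine receptors covered both survival and inflammatory input. Csf1r held 41.4% of the summed level of 65 listed genes, and 31 of them passed 1 nRPKM. Its ligand genes were low in the same libraries: Csf1 stood at 2.41 (0.674 to 5.16) nRPKM and Il34 at 0.00788 (0 to 0.124), both named after their values were seen because they are the ligands of the leading receptor. The interferon gamma receptor genes Ifngr1 and Ifngr2 are subunits of one receptor, and Ifngr1 stood at 84.04 (69.7 to 134) nRPKM. Il6st, the shared chain of the interleukin 6 family, stood at 42.2 (30.6 to 49.7), Il6ra at 31.7 (26.3 to 36.5) and Il10ra at 30.9 (19.5 to 38.6). Tgfbr1, the type 1 receptor for transforming growth factor beta, stood at 117, 246, 109, 136, 132 and 215 nRPKM in samples 2, 5, 9, 11, 12 and 13. The 14 month libraries were above the other 4 without overlap. Tgfbr1 was not called by the age test, which has little power. The share of all genes split in this way was not counted. An lncRNA gene, Gm32435, overlaps Tgfbr1, so reads in the overlap cannot be told apart. Tgfbr2 stood at 41.3 (35.8 to 45.7) and the ligand gene Tgfb1 at 19.6 (16.1 to 24.3).

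Neurotransmitter receptors were mostly low, and 7 of 48 passed 1 nRPKM, beside 37.7% of all protein-coding genes. Among channels, Hvcn1, the voltage-gated proton channel of phagocytes, stood at 14.6 (11.98 to 19.5) nRPKM and Clic1, a chloride channel protein gene, at 29.5 (15.6 to 38.7).

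**Figure D2:**
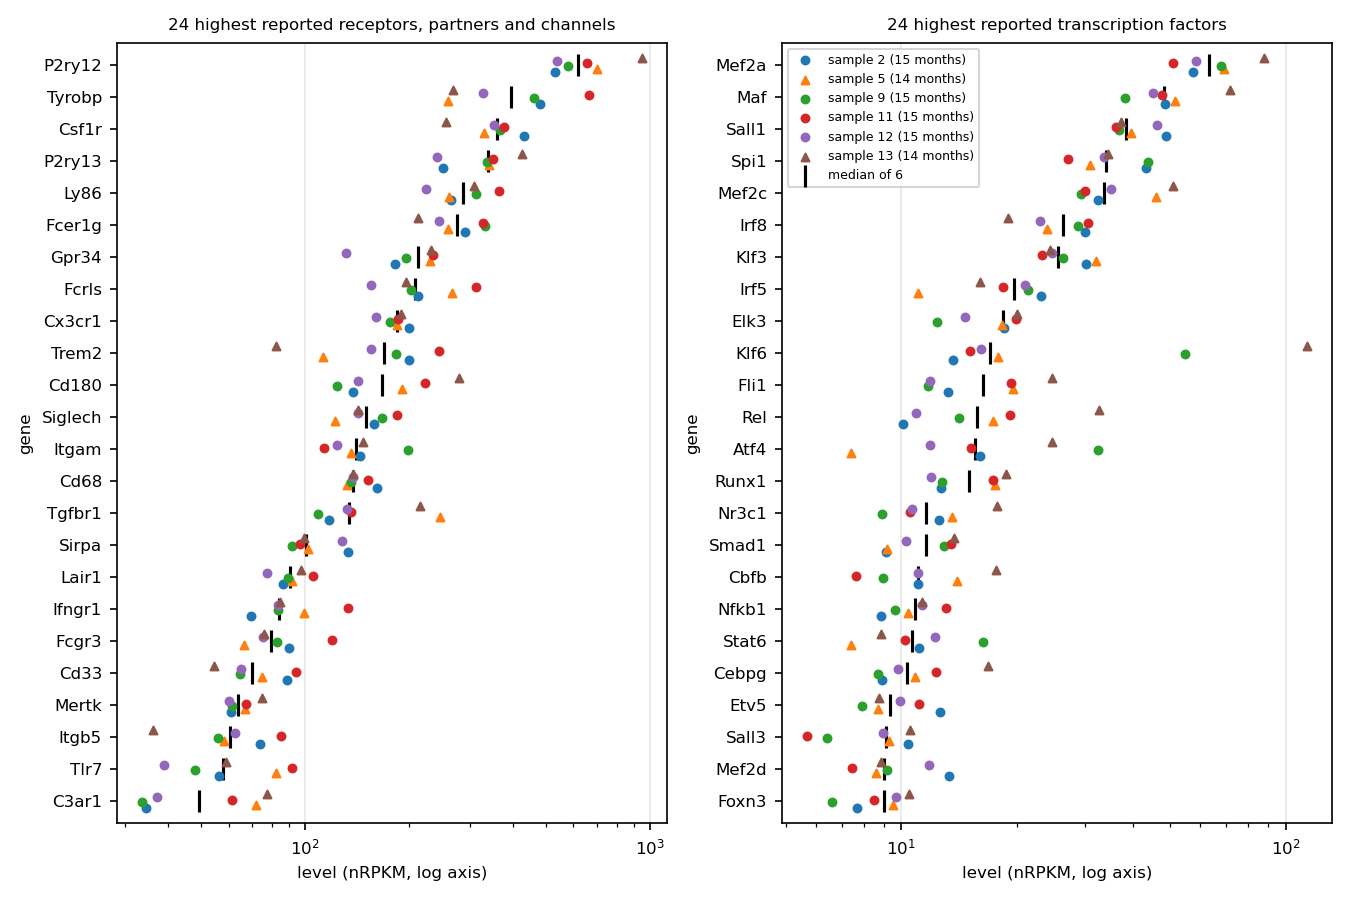
Level in nRPKM on log axes of the 24 highest reported receptors, partners and channels (left) and the 24 highest reported transcription factors (right), 1 point per wild type library, bars the median of 6. The receptors reach 619 nRPKM in the median and the transcription factors shown 63.2; samples 9 and 13 lie apart for Klf6.

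Transcription factor genes reached lower levels than receptors. Of 231 listed genes 95 passed 1 nRPKM, 21 passed 10, none passed 100 and 31 had no read. Among all protein-coding genes 37.7% passed 1 nRPKM, so the share of the list was near the background. Mef2a, a MADS box factor, stood at 57.3, 69.2, 67.9, 50.9, 58.5 and 87.8 nRPKM in samples 2, 5, 9, 11, 12 and 13. Maf stood at 48.1 (38.1 to 71.5) nRPKM. Sall1, a zinc finger factor that sets microglial identity, stood at 38.4 (36.1 to 48.99). An lncRNA gene overlaps Sall1, as another does Cx3cr1.

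Myeloid factors came next. Spi1, which encodes the macrophage master regulator PU.1, stood at 34.1 (27.2 to 43.9) nRPKM. Mef2c stood at 33.7 (29.3 to 51.003) nRPKM, Irf8, the partner of PU.1, at 26.4 (18.9 to 30.7), and Irf5, which drives inflammatory cytokines, at 19.7 (11.03 to 23.1). Other ETS genes were Elk3 at 18.4 (12.4 to 20.03) and Fli1 at 16.3 (11.7 to 24.7). Runx1, a haematopoietic factor, stood at 15.02 (11.9 to 18.7) and its partner Cbfb at 11.1 (7.60 to 17.7). Smad1, a mediator of BMP signals, stood at 11.6 (9.10 to 13.7), Smad3, a mediator of TGF-beta signals, at 7.52 (6.60 to 8.22) and the inhibitor Smad7 at 7.75 (5.99 to 19.2).

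Other families were present through few members. Rel, the c-Rel subunit of NF-kB, stood at 15.7 (10.1 to 32.8) nRPKM, Nfkb1 at 10.9 (8.83 to 13.04) and Rela at 6.92 (6.38 to 8.11). Stat6 stood at 10.7 (7.40 to 16.3) and Stat3 at 6.87 (5.38 to 9.38). Klf3 stood at 25.5 (23.2 to 32.1) nRPKM in contrast to Klf6 at 17.01 (13.7 to 114), whose highest values were in samples 9 and 13. The glucocorticoid receptor gene Nr3c1 led 49 nuclear receptors at 11.6 (8.89 to 17.7). Of the 49, 11 passed 1 nRPKM, beside 37.7% of all protein-coding genes. The SOX family had only Sox4 over 1 nRPKM, at 2.37 (1.32 to 3.13). Gata1, Gata4, Gata5 and Gata6 had no read.

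Over receptors, transcription factors, secreted genes and lysosomal genes, the first member of a list was set against the second in the same way. Of 30 such pairs, 23 had the same direction in all 6 libraries, each with an exact permutation p of 0.03125 and an adjusted p of 0.0408. The pairs were chosen by these levels, so the direction was fixed by the order. The 7 others included Fcer1g with Fcrls, Atf4 with Atf6, Klf3 with Klf6, Rel with Nfkb1, C1qb with C1qc, and Ccl12 with Ccl3.

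The list of secreted complement genes was led by the 3 C1q genes. C1qb, C1qc and C1qa, which lie together on chromosome 4, encode the 3 chains of C1q, the trigger of the classical pathway. C1qb stood at 1155, 639.5, 926, 1055, 777 and 537 nRPKM in samples 2, 5, 9, 11, 12 and 13, C1qc at 1116, 762, 781, 951, 765 and 456, and C1qa at 344, 240.4, 392, 376, 239.9 and 176. Each was lowest in sample 13; C1qb and C1qc were highest in sample 2 and C1qa in sample 9. C1qb and C1qc did not separate (exact two-sided sign-flip permutation test, adjusted p = 0.368 over 30 pairs, n = 6), and C1qb exceeded C1qa by 1.53 ± 0.19 on the log2 scale (SD, n = 6) in all 6 libraries. Of 22 listed components 5 passed 1 nRPKM, beside 37.7% of all protein-coding genes. C6, C7, C8a, C8b and C9 of the membrane attack complex had no read.

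Chemokine and cytokine transcripts were few. Ccl12, a ligand of Ccr2, stood at 50.3 (20.9 to 75.3) nRPKM and Ccl9 at 11.5 (10.8 to 14.1). Ccl3 and Ccl4, chemokine genes that overlap each other on chromosome 11, had medians of 16.7 and 9.30 nRPKM and reached 291 and 246 in sample 13. Grn, the progranulin gene, held 46.8% of the summed level of 73 listed cytokines and growth factors at 150.2 (77.8 to 169) nRPKM. Il1a stood at 10.3 (8.48 to 54.9) and Pdgfb at 9.53 (6.77 to 12.3). Ifng, Il2, Il17a and Il12a were among the 10 with no read.

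Cathepsins and cystatins summed to 6172 nRPKM in the median library and other lysosomal genes to 3429. Of 42 listed hydrolases and membrane proteins 40 passed 1 nRPKM and 30 passed 10. Laptm5, a lysosomal membrane protein gene of blood cells, stood at 324 (273 to 413) nRPKM, Lamp1 at 138 (119.5 to 151), and Psap, the saposin precursor, at 81.01 (69.8 to 89.5). Among cathepsins, Ctsb stood at 150.3 (126 to 275) nRPKM and Ctsz at 92.2 (51.4 to 122), and the asparaginyl protease Lgmn at 300.2 (257 to 325).

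Antigen presentation was led by B2m, with H2-D1 and H2-K1, MHC class I heavy chains, at 49.6 (39.2 to 61.8) and 47.1 (35.3 to 65.8) nRPKM. Class II genes were present and variable: Cd74, the invariant chain, stood at 65.9, 65.2, 60.4, 113, 84.3 and 27.7 nRPKM in samples 2, 5, 9, 11, 12 and 13, and H2-Aa at 11.4, 32.1, 40.4, 52.8, 23.8 and 14.2. MHC genes have near-identical copies, so unique alignment makes these values uncertain. Interferon-induced genes were low, with none of 30 over 10 nRPKM and Trim30a the highest at 9.11 (6.83 to 10.4). Of 30 genes associated with amyloid plaques, 25 passed 1 nRPKM. The list includes B2m, Ctsd, Tyrobp and Trem2, which are also high baseline genes, and Fth1, ferritin heavy chain, at 145 (116 to 346) nRPKM; its lowest member Gpnmb stood at 0.0592 (0 to 0.114). Of 34 orthologues of Alzheimer risk genes, 24 passed 1 nRPKM, with Picalm, a clathrin adaptor, at 84.9 (67.4 to 112) and Inpp5d, a phosphatase, at 34.7 (32.5 to 39.9).

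Metabolic and housekeeping genes included several low values. Slc2a5, a fructose transporter, led the glycolysis list at 42.7 (31.2 to 73.6) nRPKM, and Hk2, the inducible hexokinase, stood at 10.3 (7.90 to 11.9). Gapdh, the glycolytic dehydrogenase, stood at 0.444 (0.127 to 0.765) nRPKM with 85 reads over the 6 libraries. Of 84 cytosolic ribosomal protein genes, 56 passed 1 nRPKM, with a median member of 1.84 nRPKM and 0.175% of the reads in all. These genes have many near-identical processed copies, and the deposited counts take uniquely aligned reads only. The part of that in the values was not tested. Trf, transferrin, stood at 80.4 (60.3 to 89.4) nRPKM, and Abca9, a lipid transporter gene, at 55.5 (48.2 to 69.4). Proliferation genes were low in the median: 4 of 30 listed genes passed 1 nRPKM and Mcm3 was the highest at 3.50 (2.42 to 4.18). In sample 13 alone Pcna reached 13.8 nRPKM, against 0.946 to 4.81 in the others. Of 1103 olfactory receptor genes 1 passed 1 nRPKM and 983 had no read.

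Markers of other cells were low beside those of microglia. The 10 microglia markers summed to 3985, 4263, 3821, 4867, 3497 and 4475 nRPKM in samples 2, 5, 9, 11, 12 and 13. Border-associated macrophages, the perivascular and meningeal relatives of microglia, are not removed by a Cx3cr1 gate, and neither are monocytes and some NK cells. The 10 border-associated macrophage markers summed to 9.06 to 41.4 nRPKM, a median of 0.685% of the microglia sum, and 5 of 10 passed 1 nRPKM. Stab1, a scavenger receptor, was the highest of them at 11.6 (5.65 to 15.1), while Mrc1, the mannose receptor, stood at 3.69 (1.37 to 5.87) and Pf4 at 4.31 (0.838 to 12.5). In bulk libraries, few cells of a type and little RNA per cell cannot be told apart.

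Glial and neuronal transcripts were detected in every library. Astrocyte markers summed to 19.6 to 36.1 nRPKM, neuron markers to 15.8 to 29.7 and oligodendrocyte markers to 11.5 to 36.4. Among them Slc1a3, a glutamate transporter gene, stood at 10.8 (7.72 to 12.3), Camk2a, a neuronal kinase gene, at 6.15 (5.62 to 14.5) and Mbp, myelin basic protein, at 4.02 (3.26 to 14.7). T and NK cell markers summed to at most 1.34 nRPKM with none of 10 over 1, and monocyte markers to at most 3.65 with only Ccr2 over 1. Neutrophil markers ran from 0 in sample 12 to 40.1 in sample 13, where S100a8, a granulocyte calcium-binding protein gene, reached 18.3. Choroid plexus markers peaked in sample 9, where Ttr, transthyretin, stood at 64.98 nRPKM against 1.07, 0, 7.52, 3.11 and 13.6 in samples 2, 5, 11, 12 and 13. Fibroblast markers summed to 16.9 nRPKM in sample 5 and to at most 0.774 in the others. The part of these cells in other results was not tested.

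**Figure D3:**
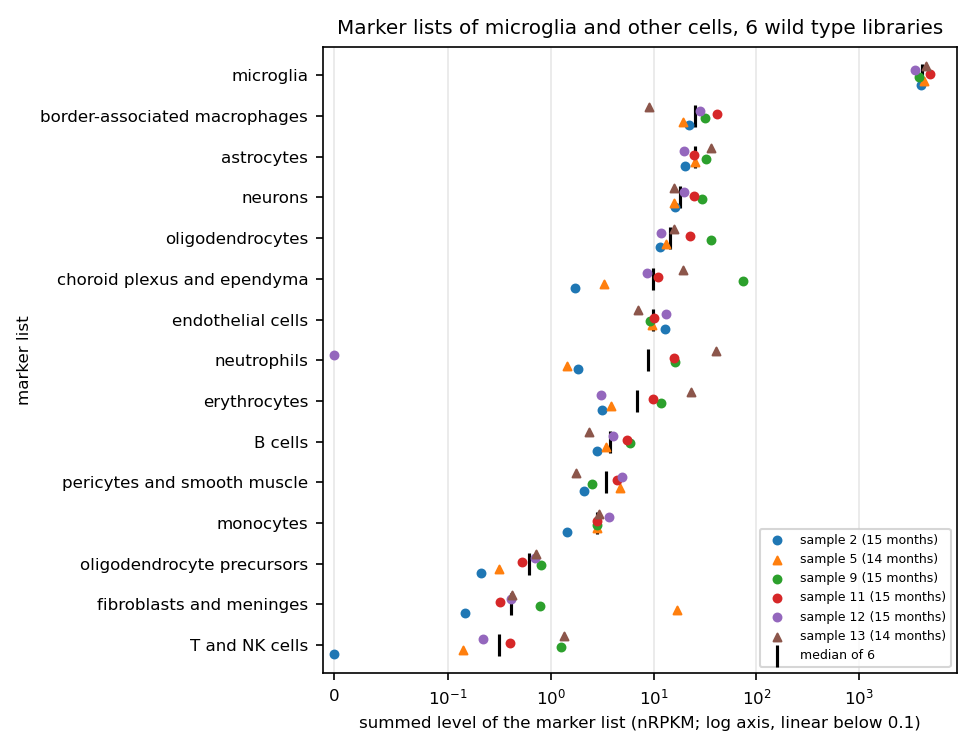
Summed level in nRPKM of each list of cell type markers (y axis), 1 point per wild type library, on a log axis that is linear below 0.1; bars are the median of 6. The microglia list sums to 3497 to 4867 nRPKM, and the highest other value is 74.996 for choroid plexus and ependyma in sample 9.

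No 2 libraries agreed within sampling noise. Their counts gave a chi-square of 18.8 to 67.5 for each degree of freedom (15 pairs), so each library counted once. Spearman's rho between pairs of libraries across genes ran from 0.851 to 0.931, a description over genes that are not replicates. Sample 11 was the most distant, with a median rho to the others of 0.860 against 0.892 to 0.912 for the rest. It also had the fewest genes with a read, 16014 against 17572 to 19928. The common biological coefficient of variation (BCV, the spread between libraries beyond counting error, from edgeR) was 58.7% over 14918 genes. For 3084 genes with a median of at least 5 nRPKM the median of single-gene values was 31.8%. edgeR moderates single-gene values toward the trend over genes of similar level. Low single-gene values therefore lie above a gene's own spread. Among genes over 1 nRPKM the median BCV was 38.8%. Homeostatic markers over 1 nRPKM had a median BCV of 29.7%, and lysosomal hydrolases and membrane proteins had 30.1%. The immediate early genes over 1 nRPKM had 77.3%. The lists were not matched to other genes by level.

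**Figure D4:**
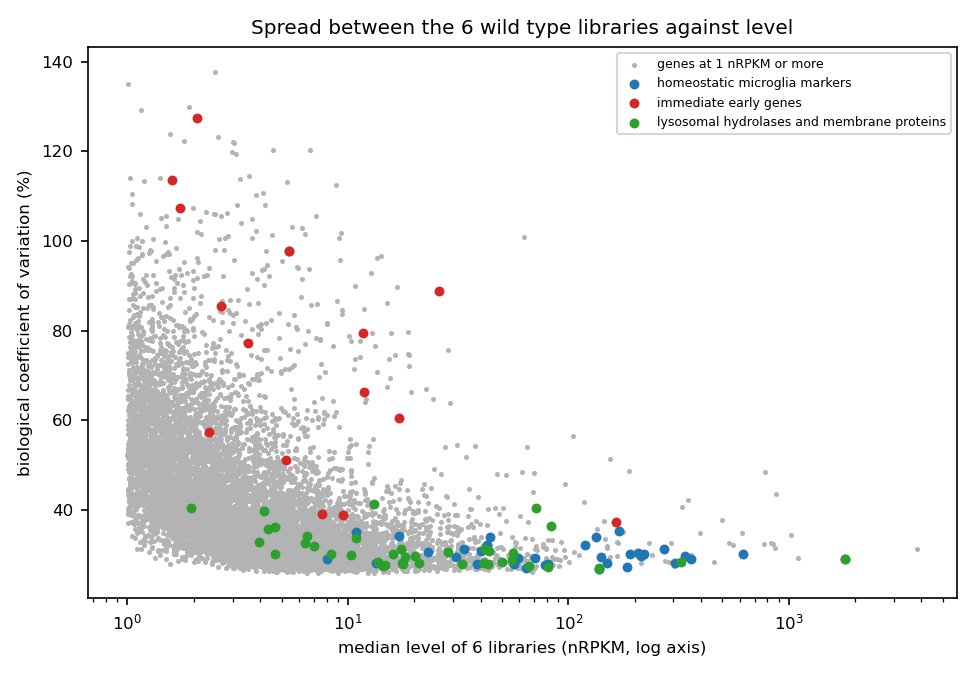
Biological coefficient of variation in percent (y axis) against the median level of 6 wild type libraries in nRPKM (log axis), 1 point per gene at 1 nRPKM or more. Single-gene values are moderated by edgeR. Homeostatic markers and lysosomal genes lie near the lower edge, with medians of 29.7% and 30.1%, except Jun, and immediate early genes lie higher with 77.3%.

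Among genes with a median of at least 5 nRPKM, Ankhd1, an ankyrin repeat gene, had the lowest BCV. Ankhd1 stood at 7.09, 7.47, 7.43, 7.15, 6.74 and 7.80 nRPKM in samples 2, 5, 9, 11, 12 and 13 with a BCV of 25.9%. Its plain SD was 0.368 nRPKM around a mean of 7.28, a smaller spread than that moderated BCV. Adnp, a homeobox chromatin factor, stood at 13.2 (12.1 to 14.3), Ptpra, a receptor phosphatase, at 15.2 (13.1 to 16.3), and Ulk2, an autophagy kinase, at 14.5 (13.6 to 15.7). Sel1l, Rassf2, Mon2, Ppp1r21, Ecpas and Ehd4 completed the 10 lowest, all below 26.3% or equal to it. At the other end, 12 of the 15 most variable genes were not protein coding, with a median of 20.5 reads per library over the 15. Those that RefSeq names as protein coding were Ttr, Ccl4 and Jun.

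Xist, the RNA that coats the inactive X chromosome, was among the 15. It stood at 68.6, 84.6, 57.4, 75.3, 0.312 and 0.699 nRPKM in samples 2, 5, 9, 11, 12 and 13. Tsix, its antisense partner, followed the same split. The Y-linked genes showed the reverse: Ddx3y stood at 5.71 and 13.1 nRPKM in samples 12 and 13 and at most 0.0285 in the others. Eif2s3y, Kdm5d and Uty were likewise over 1 nRPKM in samples 12 and 13 only. Each age holds a library of this kind, so the split did not follow age.

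Immediate early genes set samples 9 and 13 apart. The 31 immediate early genes, which respond within minutes to stimulation, summed to 242, 282, 1663, 229, 230.2 and 2823 nRPKM in samples 2, 5, 9, 11, 12 and 13. Zfp36, which destabilises cytokine mRNAs, stood at 25.1, 22.02, 378, 26.5, 24.8 and 511 nRPKM in that order. Jun stood at 5.84, 5.0005, 110.4, 4.39, 3.35 and 142 and Btg2, an antiproliferative gene, at 7.46, 10.9, 89.5, 12.4, 7.20 and 132. For each of these genes samples 9 and 13 did not overlap the other 4. These samples were singled out by these same values, and the share of all genes split this way was not counted. Rhob, a small GTPase gene with the highest median of the list, stood at 140.1, 188, 272, 124, 140.5 and 357. The chemokines moved with them: Ccl3 stood at 15.1, 6.32, 94.4, 18.4, 8.56 and 291 and Ccl4 at 8.30, 2.14, 87.9, 10.3, 4.24 and 246. Sample 9 is 15 months and sample 13 is 14 months, so the pattern did not follow age. Samples 9 and 13 were also the deepest libraries, with 7930882 and 8455237 reads against 3664742 to 5901993 in the other 4. The part of depth in the pattern was not tested. The 10 neutrophil markers summed to 1.85, 1.44, 16.2, 15.7, 0 and 40.1 nRPKM in the same order and the 9 matched erythrocyte markers to 3.14, 3.88, 11.8, 9.87, 3.08 and 22.97. Markers of choroid plexus and ependyma summed to 1.72, 3.32, 74.996, 11.1, 8.71 and 19.3 nRPKM, and Ttr too was highest in samples 9 and 13. Oligodendrocyte markers summed to 11.5, 13.3, 36.4, 22.5, 11.8 and 15.8 and neuron markers to 16.2, 15.96, 29.7, 24.5, 19.96 and 15.8, both highest in sample 9. Astrocyte markers summed to 20.1, 25.4, 32.1, 24.8, 19.6 and 36.1, highest in samples 13 and 9. The part of these transcripts in the result was not tested.

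**Figure D5:**
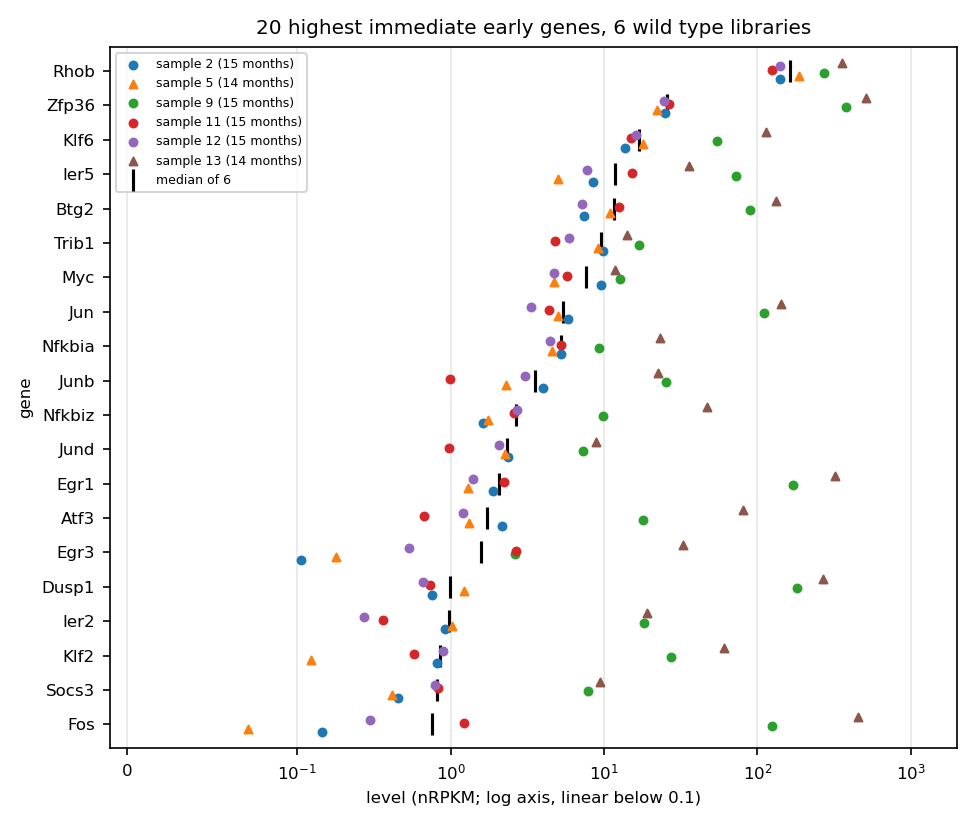
Level in nRPKM of the 20 highest immediate early genes (y axis), 1 point per wild type library, on a log axis that is linear below 0.1; bars are the median of 6. Samples 9 and 13 lie to the right of the other 4 for Zfp36 (378 and 511 nRPKM) and Jun (110.4 and 142).

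Age was the only labelled condition within the wild type libraries. Of 14918 genes tested, edgeR's quasi-likelihood test called 0 between 15 months (n = 4) and 14 months (n = 2) at a Benjamini-Hochberg adjusted p under 0.05, which is 0% called. Without adjustment 1149 genes had a p under 0.05, limma-voom called 0 and DESeq2 called 25. With 2 libraries at 14 months, the test recovered few changes in simulated counts, so a count of 0 does not show that the ages were alike. The smallest p belonged to Apoe, the lipid carrier apolipoprotein E. Apoe stood at 59.96, 18.4, 59.4, 98.7, 44.7 and 16.1 nRPKM in samples 2, 5, 9, 11, 12 and 13, a mean of 65.7 at 15 months and 17.2 at 14 months. The log2 difference, 15 minus 14 months, was 1.94 ± 0.34 (SE), with an adjusted p of 0.634 in edgeR and 1.4e-04 in DESeq2. The 14 month libraries lay below all others for Apoe, without overlap. The share of all genes with such a split was not counted. These are also the libraries with the highest fibroblast sum (sample 5) and the highest neutrophil sum (sample 13), and the part of such cells in the difference was not tested. Both unnamed genes that came next, with NCBI Gene IDs 102638720 and 102633080, were lower at 15 months at the same adjusted p of 0.634, with means of 1.39 against 6.32 nRPKM and 0.0661 against 8.16 nRPKM.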

How the data were processed

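RNA from the sorted cells was extracted with a column kit, per the labels' protocols, and GSNAP alignment was to GRCm38 (per the submitters' processing notes). Sources used here give no version, annotation, library kit or strand setting. Each sample has a table of 36528 NCBI Gene IDs. It holds counts of uniquely aligned reads, deposited as whole numbers per the file headers, and nRPKM, which is the authors' RPKM adjusted by a size factor; how that factor was computed is not stated. The ratio of RPKM to count was proportional between libraries, with a relative spread of at most 1.8e-14 over 6974 genes. RefSeq (GRCm38.p6) named 31049 IDs and supplied coordinates and promoter stretches, and the named IDs held 97.2% to 98.2% of a library's reads.

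Genes were ordered by the median nRPKM of the 6 wild type libraries, with a median count of at least 50 for the 25 most abundant. The counts went to edgeR 4.0.16 in R 4.3.3 for the spread (intercept only) and for age (filterByExpr on age, TMM scaling, quasi-likelihood test, Benjamini-Hochberg adjustment); DESeq2 1.42.0 and limma 3.58.1 (voom) were alternatives, as were other scalings, filters, level scales and each library left out. In simulated counts of 14918 genes the age test recovered 1% of 2-fold and 14% of 4-fold changes. Paired gene levels were compared by an exact sign-flip permutation test over 64 sign patterns. Of 1115 symbols in 57 lists, 1113 were matched.

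The members and lists were chosen with earlier results of these data known. Named genes are the 25 most abundant, the 4 markers, the first 6 of each list and its members with the fewest reads, the 15 most and 10 least variable at 5 nRPKM or more, the 3 with the smallest p for age, and Xist with 4 Y-linked genes; exceptions are stated beside their values. Levels of PS2APP samples, and a few genes that these rules name, are not reported here.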

Additional observations from a re-analysis of the deposited data

Results flagged for a closer look

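For 424 values (the named genes and the summed lists), the highest or lowest of the 6 libraries was set against its nearest neighbour with Dixon's test at 95%. At a rate of 1 in 20 the test would flag 21.2 of these, and 48 stood apart. That rate assumes independent, normally distributed values. Here raw nRPKM were tested, and lists were tested beside their own members. The 48 therefore cannot be set against 21.2 as a measure of chance. Genes taken for a high spread between libraries were chosen for what the test looks at. The flags gathered in samples 13 (14), 11 (13) and 5 (10), with 7 in sample 9 and 2 each in samples 2 and 12.

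In sample 5 the summed fibroblast list stood at 16.9 nRPKM against 0.145 to 0.774 elsewhere. Its collagen genes Col1a1 (4.97), Col1a2 (5.04) and Col6a1 (0.805) and the matrix proteoglycan gene Dcn (1.21) were each at most 0.247 nRPKM in the other libraries. Fn1, fibronectin, was high there too at 0.955 nRPKM, as were Ermn of oligodendrocytes (2.45), Sox30 (0.415) and the short RNA Gm25500 (34.1), while Polr2j, an RNA polymerase subunit gene, was low at 0.762.

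In sample 9 the choroid plexus list summed to 74.996 nRPKM against at most 19.3 elsewhere, with Ttr at 64.98. Myelin genes were high in the same library, with Mbp at 14.7 nRPKM and Mobp at 12.3, and so was the neuronal kinase gene Camk2a at 14.5. Ms4a7, a marker of border-associated macrophages, stood at 2.27 nRPKM and Cd4 at 0.547.

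In sample 11 the cholesterol and lipid list summed to 346 nRPKM against 230.1 to 256 elsewhere, and Npc2, which moves cholesterol out of the lysosome, stood at 47.2. Ctsb stood at 275 nRPKM, the Fc receptor genes Fcgr2b and Fcgrt at 68.0 and 13.1, Slc2a5 at 73.6, Ccl6 at 29.4, C5ar2 at 12.7 and Hrh2, a histamine receptor gene, at 4.59. The endothelial factor gene Sox18 stood at 1.67 nRPKM. Smim19 (52.6), Tex12 (31.3) and Mien1 (23.8) were also highest there.

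In sample 13 the chemokines Ccl3 and Ccl4 stood at 291 and 246 nRPKM. The same library stood apart for other genes: Tnfaip3, a brake on NF-kB, at 35.5 nRPKM, Smad7 at 19.2, Ccrl2 at 12.8, Arrdc3 at 62.0, Ifrd1 at 38.9, the cyclin gene Ccnl1 at 56.0 and Vmp1 of autophagy at 44.3. Pcna stood at 13.8 nRPKM, the short RNA Snora28 at 32.6, the neutrophil granule gene Ngp at 3.85, haemoglobin Hbb-bs at 13.4 and Cd8a at 0.0864. Sample 2 was apart for Ccr2, low at 0.725 nRPKM, and Mcm5, high at 2.05. Sample 12 was apart for the lectin gene Clec4a3, low at 8.38 nRPKM, and Ly6c1, high at 1.84.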

How the results depend on the processing

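Of 169 values recomputed under the alternatives, 154 stayed near the main value and 15 moved. Counts of genes or pairs were judged by a fixed fold limit, and other values by their SD or SE. For age, DESeq2 called 25 genes (12 higher and 13 lower at 15 months) and a fit without samples 9 and 13 called 2 (Col1a1 and Col3a1, both fibroblast markers), with sample 5 the only 14 month library left. Leaving out 1 library at a time gave between 0 and 2 calls: 2 without sample 5 (Gm33392 and Ccnl1) and 2 without sample 13 (Col1a1 and Col3a1). In these 3 fits the lone 14 month library is assumed to vary like the others. The log2 difference of Apoe stayed between 1.67 and 2.09 with a library left out, and its edgeR adjusted p between 0.223 and 0.923. The number of expressed genes was 14428 over 1 CPM and 15134 over 1 TPM. The 10 genes with the highest nRPKM in each library, chosen per library, held 14.7% of its summed nRPKM. Over shares of reads, which weight long genes, markers as a percentage of the microglia sum were 1.44% for border-associated macrophages, 0.108% for monocytes, 0.686% for neurons, 1.72% for astrocytes, 0.668% for oligodendrocytes, 0.0244% for oligodendrocyte precursors and 0.317% for endothelial cells. The common BCV was 69.0% when genes with at least 10 counts in total were kept, and 52.0% (without sample 11) to 61.7% (without sample 12) with a library left out. No paired analysis was possible because the sample numbers are unique to each library. Levels under 1 nRPKM rest on few reads in short genes, and 2 libraries at 14 months leave little power for age.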

Other observations

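Lipid and redox genes not described above were also measured. Txnip, a redox regulator gene, stood at 60.3 (42.96 to 141) nRPKM, Gpx1, a glutathione peroxidase gene, at 39.9 (21.7 to 72.8) and Cyba, a subunit of the phagocyte oxidase, at 38.01 (26.4 to 81.3). Abca1, which exports cholesterol, stood at 22.3 (18.1 to 30.1) nRPKM and Npc1, a lysosomal cholesterol transporter gene, at 20.9 (15.01 to 24.6). Ferritin was uneven: Fth1 exceeded the light chain gene Ftl1 in 6 of 6 libraries by 4.34 ± 0.56 on the log2 scale of nRPKM (SD, n = 6), a pair named after its values were seen. Light chain ferritin has near-identical copies, and how many reads this removed was not tested.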
